A study of Mus musculus with 15 samples.

Results

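A set of 10 genes that tie cell division and growth arrest to the circadian clock were followed by ribosome profiling in mouse liver: Wee1, Cdkn1a, Cdkn1b, Ccnd1, Ccnd2, Ccnd3, Gadd45a, Gadd45b, Gadd45g and Myc. They were chosen by gene symbol, 10 of 20403 genes, and all 16 of their RefSeq transcripts in the files were used. Ribosome profiling sequences the short mRNA pieces that a ribosome shields from nuclease, so a read marks mRNA that was being translated. Each library came from frozen liver tissue of a wild-type male C57BL/6N mouse aged 8 to 10 weeks. The mice had been kept for 2 weeks in 12 h light and 12 h dark, then for 24 h in constant darkness, and were killed in steps of 4 h from CT0 to CT24. Circadian time (CT) counts hours of the internal day, with CT0 at the start of the former light phase and CT12 at the start of the former dark phase. There were 2 mice at each of 7 time points, hence 14 libraries, and no other treatment or genotype, so the comparison is one of time of day.

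In the adult liver most hepatocytes are quiescent, and the cell cycle is held in check by a small set of brakes. WEE1 is a kinase that adds an inhibitory phosphate to CDK1 and so delays entry into mitosis, and Wee1 is a textbook target of the clock activators CLOCK and BMAL1 through E-boxes. Cdkn1a encodes p21, and Cdkn1b encodes p27, both inhibitors of cyclin-dependent kinases, and p21 is a main effector of p53. The D cyclins (Ccnd1, Ccnd2, Ccnd3) are the activating subunits of the G1 kinases CDK4 and CDK6. The GADD45 proteins are small stress-induced proteins linked to growth arrest and DNA repair, and MYC is a transcription factor that drives growth and proliferation.

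Sequences are shown first for the places where the reads of these genes are counted or where a clock motif lies. The 12 bases before each annotated start codon, the codon itself in capitals, and the 12 bases after it are given for the 2 genes with the widest daily change and for the 2 starts of Myc, from RefSeq on GRCm38.p6 (mm10), 5′ to 3′.
Wee1, chr7:110122338-110122364, plus strand, exonic: tgcagccgggaaATGagcttcctgagc
Cdkn1a, across the junction of the first and second exon on chromosome 17, plus strand: gccacaggcaccATGtccaatcctggt
Myc upstream start, chr15:61985910-61985936, plus strand, exonic: gctgtttgaaggCTGgatttcctttgg
Myc downstream start, chr15:61987510-61987536, plus strand, exonic: acagccacgacgATGcccctcaacgtg
Myc thus has an annotation that begins translation at a CTG, in 2 of its 4 transcripts, and another that begins at the usual ATG, in the other 2. The Wee1 gene lies at chr7:110122059-110143299 with 11 exons, Cdkn1a at chr17:29090979-29100722 with 3 exons in each of its 2 transcripts, and Myc at chr15:61985341-61990361 with 3 exons, all on the plus strand.

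Promoter sequence from RefSeq (250 bases before to 50 bases after the start site, same build) was at hand for 6 of the 10 genes, with 8 promoters, and not for Wee1, Ccnd1, Ccnd2 and Myc. The canonical E-box CACGTG, read on both strands, was present in 2 of the 8, and 7.15% of all 32851 promoters of this length held it. In Gadd45b it lay 185 bases before the start site and in Gadd45g 142 bases before it, each shown with 8 flanking bases and the motif in capitals, since they are the members with this E-box in the window.
Gadd45b, chr10:80929898-80929919, plus strand: ctgaccccCACGTGgggccgcc
Gadd45g, chr13:51846525-51846546, plus strand: cccctcccCACGTGgccttctg
The letters AGGTCA, the core of the site that REV-ERB and ROR receptors bind, occurred in 1 Ccnd3 promoter and in 16.26% of all promoters, and the D-box forms TTATGTAA and TTACGTAA occurred in none of the 8. A match of letters is a description of the window and not evidence of binding.

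The 14 libraries held 40593197 to 90458783 counts, with a median of 56446208. Major urinary protein genes took 42.1% to 70.7% of the counts, and levels are given as CPM (counts scaled to a common library size, here by TMM), with factors from 0.736 to 1.46. One read was worth 0.0123 to 0.0239 CPM. The 5 hepatocyte markers summed to 31860 to 45420 CPM. Those of Kupffer cells summed to 79 to 143, of endothelium to 86.3 to 134, of stellate cells to 97 to 152 and of bile duct to 11 to 24.3 CPM. Fewer cells of a type and less RNA per cell cannot be told apart in such tissue. CT20 replicate 2 stood apart, with 4 pancreatic acinar markers at 1883 CPM against 2.43 to 39.1 in the other libraries. All nonzero counts of CT16 replicate 2 were even. Counts of footprints alone do not separate more mRNA from more translation per mRNA.

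Wee1 and Cdkn1a, 2 of the 10 genes, had a 24 h rhythm, with fitted peaks 8.96 h apart. The test was edgeR's quasi-likelihood F test of a cosine and sine of 24 h, on the transcript of each gene with the highest mean count. It covered 9 of the 10 genes, because Gadd45b had a mean of 8.36 counts per library and the test required 10. Of all 17299 transcripts tested, 11.3% were called at an adjusted p under 0.05, against 2 of the 9 members. JTK_CYCLE, a rank test for rhythms used in the study, on CPM scaled to the total count, called the same 2 of 9 members, where 22.2% of all transcripts were called.

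**Figure D1:**
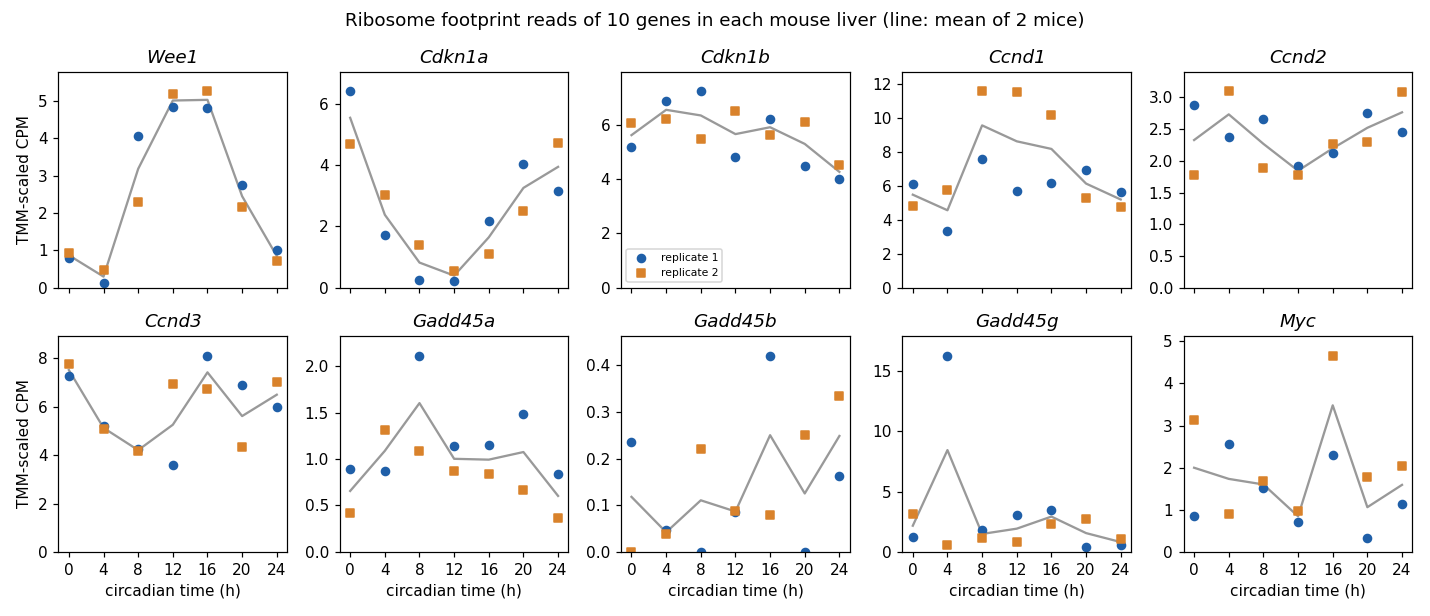
Footprint reads of the 10 genes in TMM-scaled CPM (vertical axis from 0, scale differs by gene) against circadian time in h, with a point for each mouse and a grey line through the mean of 2 mice. Wee1 was high at CT12 and CT16 and Cdkn1a at CT0 and CT24 in both mice, whereas the highest Gadd45g value, 16.3 CPM at CT4, came from 1 mouse.

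Wee1 reads stood at 0.810 and 0.933 CPM in the CT0 mice, 0.124 and 0.474 at CT4, 4.08 and 2.29 at CT8, and 4.85 and 5.18 at CT12. They were 4.81 and 5.26 CPM at CT16, 2.75 and 2.16 at CT20, and 0.999 and 0.704 at CT24. The 4 libraries of CT12 and CT16 were all above every other library, and the 6 libraries of CT0, CT4 and CT24 were all below every other library. The fitted peak lay at 13.99 h, 10.4-fold above the trough (3.38 on the log2 scale, edgeR adjusted p = 0.000104). A least-squares fit to log2 CPM put the peak at 14.5 ± 0.654 h (SE, n = 14), with 14.7 h from the first mice alone and 14.3 h from the second mice alone. JTK_CYCLE placed it at 16 h with an adjusted P of 5.99e-07. Of the 5 hepatocyte markers 1 was called, Cyp2e1, with a peak at 14.1 h (1.86-fold, edgeR adjusted p = 0.0026), and its part in the Wee1 result was not tested.

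Cdkn1a reads were 6.39 and 4.68 CPM at CT0, 1.72 and 3.03 at CT4, 0.250 and 1.39 at CT8, and 0.234 and 0.556 at CT12. They were 2.17 and 1.12 CPM at CT16, 4.02 and 2.49 at CT20, and 3.16 and 4.72 at CT24. The mice of CT0 and CT24 were all above those of CT4, CT8, CT12 and CT16, and the CT8 mice differed 5.56-fold from each other. The fitted peak lay at 22.9 h with a 9.30-fold change from trough to peak (3.22 on the log2 scale, edgeR adjusted p = 0.000275). The least-squares peak was at 22.8 ± 0.652 h (SE, n = 14), 21.9 h in the first mice and 0.470 h in the second mice. JTK_CYCLE placed it at 0 h with an adjusted P of 1.89e-05.

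Of the 5 bile duct markers, which belong to another cell type of the liver, 1 was called with a peak near that of Cdkn1a. Sox9 peaked at 0.114 h (2.63-fold, edgeR adjusted p = 0.0058), and Krt19 had a fitted peak at 23.1 h without a call (4.70-fold, 0.0602). Krt7, Epcam and Spp1 were not called either. The summed level of the 5 markers was 24.3 and 15.45 CPM at CT0, 17.6 and 16.6 at CT24, and 11.0 to 20.5 in the other 10 libraries. CT0 replicate 1 was the highest library for this sum, for Krt19 (6.05 CPM against at most 0.953 elsewhere) and for Cdkn1a. Without that library Cdkn1a was still called, with a peak at 22.9 h (edgeR adjusted p = 0.00124). The part of the bile duct markers in the Cdkn1a result was not tested.

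Both calls were kept under all alternatives of processing and after leaving out any library. The edgeR and DESeq2 adjusted p ran from 1.27e-12 to 0.00113 for Wee1 and from 1.67e-10 to 0.00459 for Cdkn1a. Across these fits the peak moved only between 13.7 and 14.7 h for Wee1 and between 22.6 and 23.5 h for Cdkn1a.

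The 2 genes can be set against each other within a library, where no scaling is needed. The ratio of Wee1 to Cdkn1a reads was 0.128 and 0.201 at CT0 and 0.0762 and 0.159 at CT4. It rose to 15.9 and 1.64 at CT8, and was 20.2 and 9.19 at CT12 and 2.21 and 4.68 at CT16. It returned to 0.686 and 0.866 at CT20 and to 0.318 and 0.151 at CT24. All 6 libraries of CT8, CT12 and CT16 were above all 8 others. These are ratios of reads from transcripts of unequal length, so only their change over time is compared, not which gene was higher. A 24 h cosine fitted to the log2 ratio took up 83.3% of its variance, and it peaked at 12.7 ± 0.58 h with a log2 range from trough to peak of 6.505 ± 0.879 (SE, n = 14). The ratio is made of the reads of both calls above, so its fit is a description and no further evidence of a rhythm.

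**Figure D2:**
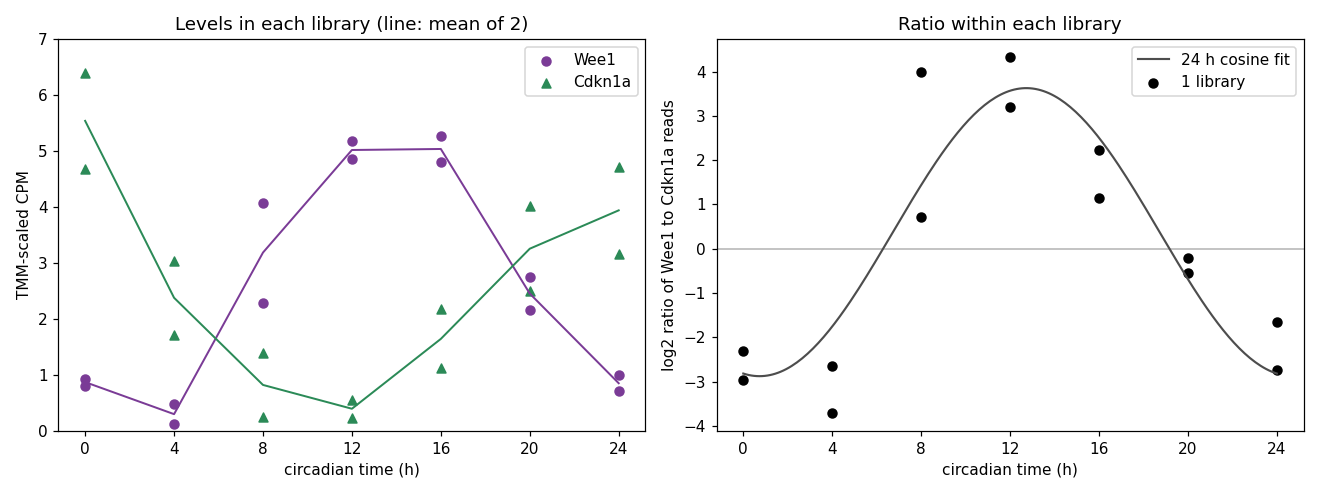
Left, TMM-scaled CPM of Wee1 (circles) and Cdkn1a (triangles) in each library against circadian time in h, with lines through the mean of 2 mice. Right, the log2 ratio of Wee1 to Cdkn1a reads in each library with its 24 h cosine fit, which is higher in each of the 6 libraries from CT8 to CT16 than in the other 8.

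Clock genes measured in the same libraries give the times a scale. The edgeR peaks were at 8.54 h for Nr1d1 and 11.2 h for Dbp, a repressor and an activator that are direct clock targets. They were at 13.8 h for Per1 and 16.5 h for Per2, inhibitors in the core loop, and at 21.0 h for Cry1, their partner. Nfil3, a repressor at D-boxes, peaked at 22.6 h, Arntl (BMAL1) at 23.0 h and Npas2, a partner of BMAL1, at 1.19 h. Wee1 at 13.99 h thus lay 0.166 h from Per1, and Cdkn1a at 22.9 h lay beside Arntl and Nfil3. These distances are within the standard errors of 0.54 to 0.81 h of the Per1, Arntl and Nfil3 peaks and were not tested. In fold range Wee1 (10.4-fold) was close to Per1 (8.85-fold), and Cdkn1a (9.30-fold) was between Nfil3 (4.28-fold) and Arntl (15.2-fold).

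**Figure D3:**
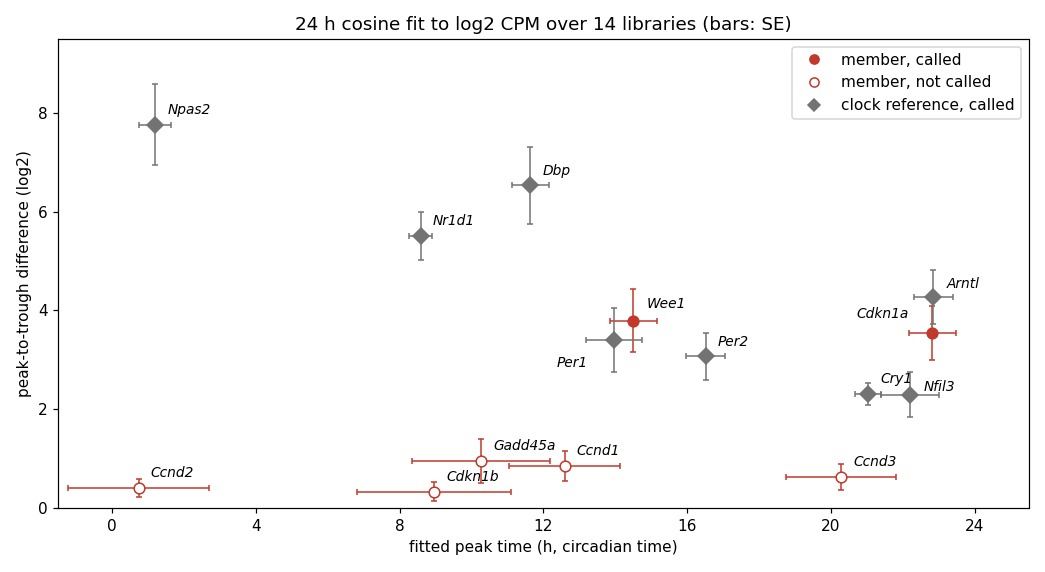
Peak time in h (horizontal) and peak-to-trough difference in log2 units (vertical) from a 24 h cosine fitted to log2 CPM over 14 libraries, with SE bars, for members whose peak time had an SE under 3 h (circles) and 8 clock genes (diamonds). Wee1 lay beside Per1 and Cdkn1a beside Arntl, and the 5 other members (open) had peak-to-trough differences under 1.

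The genes whose profile over the 14 libraries was most like that of Wee1 were searched among 8215 other genes with a mean of at least 100 counts. They were Per3, a period gene of the clock (Pearson r = 0.963), Usp2, a ubiquitin protease (0.946), Gigyf2 (0.933), Dtnb (0.93) and St3gal5 (0.919). Per3 and Usp2 varied as widely as Wee1 or more, with log2 ranges from trough to peak of 4.56 and 4.99, but Gigyf2 varied by 0.55. Most like Cdkn1a were Slc34a2, a sodium-phosphate carrier (0.957), Slc16a1, a monocarboxylate carrier (0.944), Mrap (0.939), Ddc (0.933) and Tssc4 (0.927). Slc34a2 varied by 8.13 on the log2 scale and the other 4 by 0.84 to 1.50. These r values describe the most similar of many profiles from the same libraries and are given without a test.

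The second Cdkn1a transcript has its own first exon and shares the coding region, so its rhythm is mostly that of the same reads. It was called as well, with a peak at 23.0 h (edgeR adjusted p = 0.00032). The reads that tell the 2 apart lie in the 5′UTR, where the main transcript had 222 reads over all libraries and the second 38. These totals include any 5′UTR reads in the exon that both share, and in CT8 replicate 1 each had 7. The 5′UTR length of the second transcript in the files (128 nt) also differs from that of the annotation (134 nt). In all, edgeR called 3 of the 15 member transcripts tested, the Wee1 transcript and both Cdkn1a transcripts, against the 11.3% given above for all transcripts. JTK_CYCLE called the same 3 and 2 further Ccnd3 transcripts, against its 22.2%.

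Cdkn1b, another inhibitor of this family, had no called rhythm. Its level ran from 4.02 to 7.22 CPM with a median of 5.84. The highest library was CT8 replicate 1 and the lowest CT24 replicate 1, and from CT4 to CT24 the mice of neighbouring times overlapped. The CT0 mice, at 5.16 and 6.06 CPM, lay below the CT4 mice, at 6.22 and 6.86. The fitted peak-to-trough change was 1.25-fold (edgeR adjusted p = 0.481). Its 2 mice differed with an SD of 0.22 on the log2 scale within time points, near the median of 0.24 over the 12029 transcripts that averaged 100 counts or more. The same SD was 0.85 for Cdkn1a and 0.58 for Wee1, at the 99.4th and 98.0th percentile.

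Among the main transcripts of the D cyclins, Ccnd1 came closest to the threshold with TMM scaling, both by edgeR and by JTK_CYCLE. With scaling to the total count it was the farthest from it by both. Its reads were 6.12 and 4.84 CPM at CT0, 3.36 and 5.76 at CT4, 7.57 and 11.6 at CT8, and 5.70 and 11.5 at CT12. They were 6.15 and 10.2 CPM at CT16, 6.96 and 5.31 at CT20, and 5.63 and 4.77 at CT24. The 3 highest libraries were the second mice of CT8, CT12 and CT16, and the first mice of CT12 and CT16 lay within the range of the other times. The fitted change was 1.87-fold with a peak at 12.3 h (edgeR adjusted p = 0.0531). JTK_CYCLE gave an adjusted P of 0.402 on CPM scaled to the total count and 0.126 with TMM scaling. It was called by DESeq2's likelihood ratio test (adjusted p = 0.0143), with CDS reads alone (0.0463), with a minimum mean of 1 count (0.0492), without CT12 replicate 1 (0.013) and without CT16 replicate 1 (0.037), all but the first by edgeR. With total-count scaling its edgeR adjusted p was 0.394, and over all alternatives it ran from 0.013 to 0.394.

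Ccnd3 ranged from 3.59 to 8.11 CPM with a median of 6.36. Its highest library was CT16 replicate 1 and its lowest CT12 replicate 1. The CT0 mice were at 7.27 and 7.77 CPM and the CT8 mice at 4.24 and 4.17, without overlap, but the CT12 mice were at 3.59 and 6.92. The fitted change was 1.59-fold with a peak at 20.0 h (edgeR adjusted p = 0.179). Without CT20 replicate 2, the library with acinar markers, the adjusted p was 0.0313, within a range of 0.0313 to 0.366 over the alternatives. By JTK_CYCLE the main Ccnd3 transcript had an adjusted P of 0.0904, and the other 2 transcripts, which share its coding reads, were called at 0.0297 and 0.0439. With TMM scaling, as used for the levels, JTK_CYCLE called neither (0.173 and 0.308).

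Ccnd2 ranged from 1.77 to 3.09 CPM with a median of 2.33, lowest in CT0 replicate 2 and highest in CT4 replicate 2. Its fitted change was 1.34-fold with a peak at 0.888 h (edgeR adjusted p = 0.411, JTK_CYCLE adjusted P = 0.0636). The JTK_CYCLE value fell to 0.0224 without CT0 replicate 2 and to 0.00806 without CT16 replicate 1. Without CT16 replicate 1 JTK_CYCLE called 4 members instead of 2, adding Ccnd2 and Ccnd3 (0.0137). The share of all transcripts called without that library is not given.

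The GADD45 genes showed no rhythm that passed a test, and 1 mouse stood far above the others in Gadd45g. Gadd45g was at 1.23 and 3.10 CPM at CT0, 16.3 and 0.607 at CT4, 1.79 and 1.19 at CT8, and 3.05 and 0.800 at CT12. It was at 3.50 and 2.35 CPM at CT16, 0.406 and 2.71 at CT20, and 0.571 and 1.06 at CT24. The first CT4 mouse was far above the other 13 libraries, with 1049 reads against 32 in the second CT4 mouse, a 26.8-fold difference. Its 2 mice differed with an SD of 1.61 on the log2 scale within time points, at the 99.7th percentile, while the means of the 7 time points had an SD of 0.73. In the other uncalled members too the SD within time points was above that of the time point means. The edgeR adjusted p was 0.569, and the fitted peak moved from 6.06 h to 15.9 h when CT4 replicate 1 was left out.

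Gadd45a ranged from 0.370 to 2.11 CPM with a median of 0.882, highest in CT8 replicate 1 and lowest in CT24 replicate 2 (peak 10.1 h, edgeR adjusted p = 0.368). The CT8 mice, at 2.11 and 1.09 CPM, overlapped with those of CT4, CT12, CT16 and CT20. Gadd45b was nearly absent from the footprints. It had no read in CT0 replicate 2, CT8 replicate 1 and CT20 replicate 1, which allows up to 0.0482, 0.0375 and 0.0717 CPM (3 counts each, counting error only). Its highest value was 0.421 CPM, 26 reads, in CT16 replicate 1, against 0.0797 in the other CT16 mouse. With the minimum lowered to a mean of 1 count, its edgeR adjusted p was 0.808. The E-box printed above for Gadd45b and Gadd45g was thus found in promoters of genes without a called rhythm here.

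**Figure D4:**
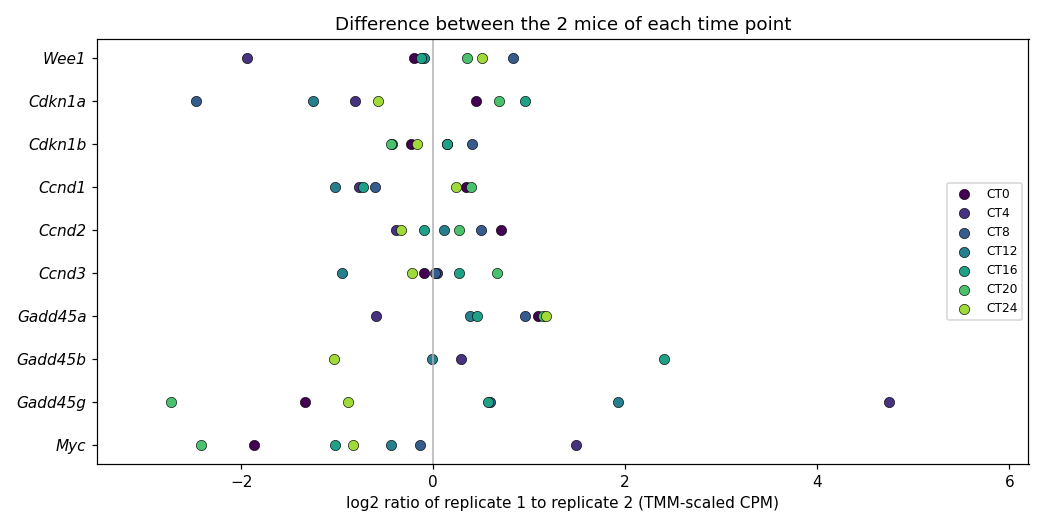
Log2 ratio of replicate 1 to replicate 2 in TMM-scaled CPM (horizontal) for each gene (rows), with a point per time point coloured from CT0 to CT24; time points where a mouse had no read are left out. Gadd45g at CT4 stands at 4.74, and the points of Cdkn1b stay between -0.44 and 0.40.

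Myc was low and uneven. It stood at 0.860 and 3.14 CPM at CT0, 2.56 and 0.910 at CT4, 1.53 and 1.68 at CT8, and 0.716 and 0.974 at CT12. It was 2.30 and 4.66 CPM at CT16, 0.335 and 1.79 at CT20, and 1.14 and 2.04 at CT24. The CT16 mice had the highest mean, 3.48 ± 1.67 CPM (SD, n = 2), yet the second CT0 mouse and the first CT4 mouse both exceeded the first CT16 mouse. The edgeR adjusted p was 0.844 and the JTK_CYCLE adjusted P was 1.

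Levels between genes can be compared only per length, as TMM-scaled RPKM of the CDS (reads per kilobase of coding length, scaled for depth). The order was Ccnd1 (7.38 ± 2.72), Cdkn1b (6.93 ± 1.41), Ccnd3 (6.496 ± 1.67), Cdkn1a (4.71 ± 3.50) and Gadd45g (4.71 ± 6.57), all as mean ± SD over 14 libraries. The Gadd45g mean rested on CT4 replicate 1, at 26.6, without which it was 3.02 ± 1.93 (SD, n = 13). There followed Ccnd2 (2.68 ± 0.543), Gadd45a (1.90 ± 0.895), Wee1 (1.15 ± 0.892), Myc (1.124 ± 0.769) and Gadd45b (0.243 ± 0.243). The first 3 did not separate, since Ccnd1 exceeded Cdkn1b in 6 of 14 libraries and Cdkn1b exceeded Ccnd3 in 7. Of all neighbours in this order, only Myc and Gadd45b differed by more than the spread of their ratio, a mean log2 difference of 1.91 ± 1.21 (SD) over the 10 libraries with CDS reads of both. Ccnd2 was the lowest D cyclin in all 14 libraries, and Ccnd1 and Ccnd3 each led in 7. Gadd45b was the lowest GADD45 gene in all 14, Gadd45g led in 8 and Gadd45a in 6.

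**Figure D5:**
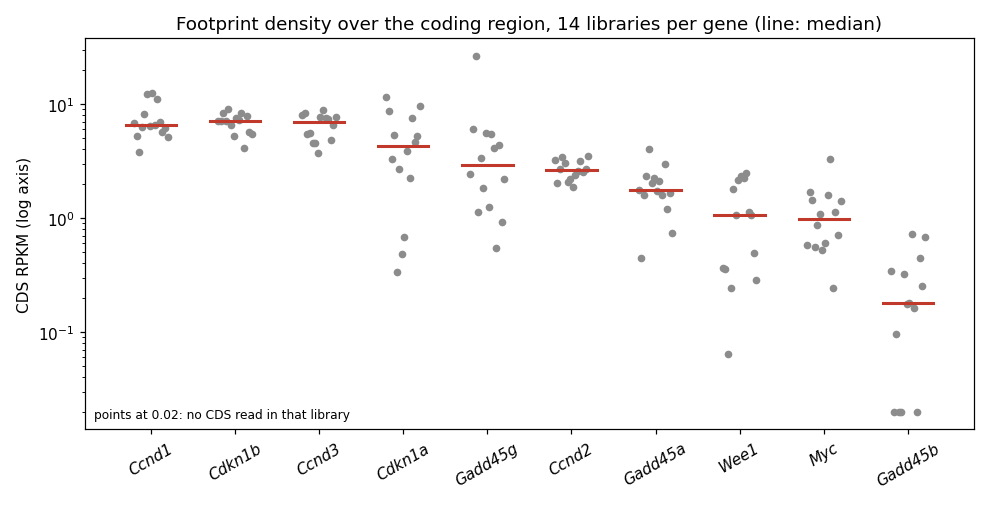
Footprint density over the coding region in CDS RPKM (log axis), 14 libraries per gene with the median as a line, in order of the mean. The first 3 genes overlap throughout, and Gadd45b had no CDS read in 4 libraries, drawn on the lowest line.

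Reads in the 5′UTR can come from upstream initiation, so each gene's regions were compared. The shares are of reads summed over the libraries and are not corrected for the length of the regions. Cdkn1b had the largest share, with 1260 of its 5′UTR and CDS reads in the 5′UTR, 26.4%, against a median of 3.88% over 16838 transcripts. Gadd45g had 16.5%, which was 13.4% without CT4 replicate 1, the library with 215 of its 402 5′UTR reads. Gadd45b had 15.4% (18 reads against 99 in the CDS), Myc 13.0%, Cdkn1a 11% and Wee1 10.2%, while Gadd45a had 4.56%, Ccnd3 2.89%, Ccnd1 2.82% and Ccnd2 1.17%. The Ccnd1 share is uncertain, because the 5′UTR length in its files (232 nt) differs from that of the annotation (138 nt). The order changed once region length was taken into account, where Cdkn1b has a long 5′UTR (519 nt, with a CDS of 596 nt). Per nucleotide, 5′UTR reads stood at 0.910 of the CDS level in Gadd45g, 0.762 in Wee1 and 0.584 in Cdkn1a. Cdkn1b came after these, at 0.412. The Gadd45g value includes CT4 replicate 1. The 3′UTR held at most 1.32% of the reads of any main transcript. Short upstream reading frames were searched that start with ATG and have an in-frame stop inside the 5′UTR. Frames that run on into the CDS were not counted. The main transcript of Ccnd3 has 3, and none was found in the other main transcripts. For Ccnd1 only the 138 nt of the annotation were searched.

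No daily rhythm was called in the balance between 5′UTR and CDS reads of the members that could be tested. The test, with limma, covered the 7 members with a mean of 10 or more reads in both regions and left out Ccnd2, Gadd45a and Gadd45b. None of the 7 was called, as was none of all 7640 transcripts tested (0%). At an unadjusted p under 0.05 there were 377 transcripts (4.93%) and no member. The lowest member p was that of Myc, 0.0556 (limma adjusted p = 0.81), with a fitted range of 2.54 on the log2 scale. Gadd45g had the same fitted range of 2.54 (limma adjusted p = 0.81), so a lack of calls does not show that the ratios were constant. For Wee1 and Cdkn1a the adjusted p was 0.948 and 0.906.

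The annotated starts of Myc can be compared through reads between the CTG and the ATG shown above, which count as CDS in 1 annotation and as 5′UTR in the other. There were 43 such reads over all libraries, in 7 of 14. CT8 replicate 1 held 18 of them, from 122 Myc reads, and both mice of CT0, CT12 and CT24 held none. The 4 Myc transcripts had the same total count in each library, so they are 1 measurement.

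The first and last time points are the same circadian time a day apart. No member was called as different between CT24 and CT0 by edgeR, nor was any of 17299 transcripts (0%), while 873 (5.05%) had an unadjusted p under 0.05, none of them a member. DESeq2's Wald test called 2 transcripts (0.0116%) and no member. Wee1 was 0.871 CPM at CT0 and 0.851 at CT24, a log2 difference of -0.04. Cdkn1a was 5.54 and 3.94 CPM (-0.49, edgeR adjusted p = 0.959), and the widest member difference was that of Gadd45g, 2.17 and 0.813 CPM (-1.40, edgeR adjusted p = 0.957).

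The rest of the cell cycle machinery was read through 5 gene lists, 72 genes of which 63 could be tested. Of these, 11 were called by edgeR (17.5%), against 11.3% of all transcripts. Without CT4 replicate 1, CT12 replicate 1 or CT12 replicate 2 the count was 6 each time. The share of all transcripts called is not given for fits without a library, here and below. Such counts are therefore not a result about the lists. The other rules named below called 14.7% (DESeq2's likelihood ratio test), 10.8% (edgeR on CDS reads alone) and 8.25% (edgeR with total-count scaling) of all transcripts. In the G1 list, 2 of 16 tested were called, where the median log2 range from trough to peak was 0.55, against 0.44 over all transcripts. Ccne1, the cyclin of the G1 to S step, ranged from 0 to 1.57 CPM and peaked at 11.9 h (7.17-fold, adjusted p = 0.0209). Rbl2, a pocket protein that holds E2F factors in quiescence, ranged from 4.54 to 8.26 CPM and peaked at 7.09 h (1.58-fold, 0.0224). With total-count scaling no G1 gene was called, and without CT4 replicate 1 or CT12 replicate 2 there was 1.

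Of the G2 and mitosis list none of 11 tested was called, with a median difference of 0.98, and 5 more of its 16 genes had too few reads. Cdk1, the kinase that WEE1 inhibits, ranged from 0.645 to 2.39 CPM (edgeR adjusted p = 0.476). Mki67, a marker of dividing cells, ranged from 0.358 to 1.98 CPM (0.71). Without CT20 replicate 2 and by DESeq2 the list had 1 call each. The MYC network also had no call among 9 tested (median 0.61), and 1 without CT24 replicate 2 or by DESeq2.

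Of the DNA replication list 4 of 11 tested were called, with a median difference of 0.77. Rrm2, a subunit of ribonucleotide reductase, peaked at 14.2 h, near the fitted peak of Wee1 (2.61-fold, edgeR adjusted p = 0.00264). The helicase subunits Mcm2 (2.54-fold, 0.0368), Mcm3 (1.98-fold, 0.0458) and Mcm7 (1.88-fold, 0.0173) peaked at 22.6, 0.411 and 23.2 h. Mcm4, Mcm5 and Mcm6 of the same complex were not called (0.32, 0.408 and 0.523). The count fell to 1 without either CT12 library, and to 2 without CT0 replicate 1, CT4 replicate 1, CT8 replicate 1, CT20 replicate 1 or either CT24 library.

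Of the p53 and stress list 5 of 16 tested were called, with a median difference of 0.53. Plk3, a stress-responsive polo-like kinase, peaked at 15.4 h (5.15-fold, edgeR adjusted p = 0.0137). Ddit4, an inhibitor of mTORC1, peaked at 21.2 h (4.08-fold, 0.00732). Bbc3, the apoptosis activator PUMA, peaked at 3.17 h (2.75-fold, 0.0256), and Btg1, an antiproliferative factor, at 0.351 h (2.61-fold, 0.000824). Trp53, the gene of p53 and the only other call, named after its values were seen, peaked at 2.31 h (1.41-fold, 0.0306). Mdm2, Bax, Ccng1 and Sesn2, other known p53 targets in the list, were not called (0.764, 0.717, 0.325 and 0.864). The count was 3 with CDS reads alone and without CT4 replicate 1 or CT12 replicate 1, and 2 without CT16 replicate 2.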

How the data were processed

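Per the study's methods, the authors removed rRNA reads, aligned the rest to mm10 (Bowtie2 2.1.0.0 and SAMtools 0.1.19.0 per the submitters' notes) and kept exact, uniquely placed matches for their profiles. Whether the deposited counts passed the same filters is not given in the sources used here. They deposited raw read counts for each region (5′UTR, CDS, 3′UTR) of 28167 RefSeq transcripts, beside the other values of each row, the region lengths. The labels list 15 samples, of which 1 is a repeat run of CT16 replicate 2 without a separate file. The last pair, labelled CT24 in the title and CT00 in a label field, was used as CT24.

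Members and gene lists were chosen with earlier results of these data known. Counts of the 3 regions were summed; transcripts of a locus share reads. Symbols came from RefSeq for 27840 transcripts and from GENCODE for 116. The named genes were the members, up to 4 called genes per list with the largest peak-to-trough difference, the 5 genes most correlated with Wee1 and with Cdkn1a, and 8 clock genes. Other list and marker genes that are named, uncalled ones included, were chosen outside this rule after their values were seen.

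Rhythms were tested where a transcript averaged 10 counts or more, with edgeR 4.0.16 (TMM, quasi-likelihood F test, Benjamini-Hochberg) and with JTK_CYCLE rewritten in Python (P adjusted over phases), both at 0.05. The 5′UTR to CDS log2 ratio (pseudocount 0.5) was tested with limma 3.58.1, and DESeq2 1.42.0 was an alternative, in R 4.3.3. Alternatives were other scalings, count minimums, pseudocounts, CDS reads alone, a replicate block and leaving out each library. Scripts were tested on simulated data. The replicates of a time point are 2 separate mice, and precision is set by their number and by depth (40593197 to 90458783 counts). Intervals from counts cover counting error only.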

Additional observations from a re-analysis of the deposited data

How the results depend on the processing

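Wee1 and Cdkn1a were called in all 27 alternative rhythm fits and all 18 JTK_CYCLE alternatives. The number of rhythmic members was 2 to 3 by edgeR and DESeq2, and by JTK_CYCLE it was 2 in 14 of 18 alternatives, 3 with CDS reads only (Ccnd3), without CT0 replicate 2 (Ccnd2) and without CT20 replicate 2 (Ccnd3), and 4 without CT16 replicate 1 (both), a range of 2 to 4 when each library was left out. The 5′UTR to CDS ratio and the CT24 to CT0 contrast called no member in 18 and 10 alternatives. The count of called list genes ran from 6 to 11 when each library was left out and was 15 by DESeq2. Shares of all transcripts are not given for the fits without a library.

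The replicate numbers were not taken as a pairing of the mice. Deviations of same-numbered mice correlated with r from -0.12 to 0.50 (median 0.17) over 21 pairs of time points, and 13 of the 21 were over 0.1, where all were required. With the replicate block, 2 members were called by edgeR and none by the 5′UTR to CDS ratio or CT24 to CT0 tests, and 11 list genes were called. The block changed no member's call.

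With 2 mice a time point and a mean of 8 to 407 counts per member, changes within the spread of 2 mice were not detectable. Halving the even counts of CT16 replicate 2 changed no member's rhythm call by edgeR, the test in which it was tried.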

Other observations

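The gap between the CT4 mice in Gadd45g was the third widest of 8216 genes with a mean of at least 100 counts, 4.72 on the log2 scale with a pseudocount of 0.5. The 2 wider gaps and the next one belonged to genes with no read in the first CT4 mouse and 10 to 29 reads in the second, so among these 5 genes Gadd45g was the only one read in both mice. The fifth, Rgs16, had 15 reads in the first CT4 mouse and none in the second. With so few reads at CT4, all but Gadd45g reached a mean of 100 counts only through other time points. The rank of Gadd45g therefore depends on that filter. These genes were named after their values were seen. Myc was also higher in the first CT4 mouse (2.56 against 0.910 CPM) and, as with Gadd45g, lower in the first CT20 mouse (0.335 against 1.79 CPM). The mouse with more Gadd45g reads also had more Myc reads at 4 of 7 time points, which is close to an even split. At CT8, CT12 and CT16 it had fewer Myc reads. A link between the 2 genes was not tested.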
